A study of Mus musculus with 4 samples.

Results

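The response of wild-type mouse skin to a punch wound was read from a pair of expression arrays, WT_punched against WT. The WT_punched array held skin taken 2 days after punching and the WT array held unwounded skin. Both came from wild-type mice of the C57Black6/J strain background, and the labels give their genotype as WT, the control. Full skin biopsies of 5 mm were used, and the RNA of 3 mice was mixed before labelling, so each group was 1 array of a pool and no spread between mice was measured. The labels give no age, sex or body site, and no hair cycle stage. The other 2 arrays of the series held skin of mice deficient in the BLT2 receptor, a receptor for leukotriene B4 and 12-HHT, taken 2 days after punching (BLT2KO_punched) or unwounded (BLT2KO). Their values are given beside some members below. Every gene whose probe was detected, at a detection p-value under 0.01, on WT_punched or WT was a member, which made 10382 of the 19057 genes named on the array. With 1 array a group, no difference was tested, no p-value is given, and each ratio compares these arrays.

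A full-thickness wound first fills with a clot and then with blood leukocytes. Neutrophils come early, drawn by CXC chemokines and formyl peptides, and monocytes follow and become macrophages that kill microbes, clear debris and later support repair. Keratinocytes at the edge change their keratins and migrate under the scab, while fibroblasts and new vessels build granulation tissue. Mouse skin also holds hair follicles whose growth cycles with time, a fat layer, and a sheet of striated muscle, the panniculus carnosus, so RNA of a whole biopsy carries all of these.

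Values below are log2 levels, that is background-corrected and quantile-normalized probe intensities, and ratios are WT_punched over WT. A log2 ratio of 1 is a 2-fold difference. Of 45 skin cell markers named on the array, 43 were detected on both arrays, among them the basal keratin Krt14, the suprabasal keratin Krt10, the collagen Col1a1, the adipokine Adipoq and the muscle actin Acta1. Of 6 markers of organs that skin should lack, only Myh6, the alpha cardiac myosin, was detected, on WT_punched at 5.34, against 4.70 and not detected on WT. A wider list of other organs' genes, 16 of them named on the array, had 3 measured. Besides Myh6 these were Cela1, an elastase best known from the pancreas, at 8.30 on WT_punched and 7.26 on WT (2.07-fold higher), and Syn1, or synapsin of neurons, at 7.29 and 5.27 (4.05-fold higher). Detected probes made up 36.5% of 45281 on WT_punched and 36.2% on WT. Undetected probes had a median intensity of 93.3 on WT_punched and 65.1 on WT before background correction. Different probes for the same gene gave a technical SD of 0.26 in a log2 ratio, which leaves out labelling, hybridisation and the mice.

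Of the 10382 genes, 201 (1.94%) had a WT_punched level at least 2-fold above WT, 154 (1.48%) one at least 2-fold below, and 355 (3.42%) were past 2-fold either way. Detection was on both arrays for 9379 genes, on WT_punched alone for 583 and on WT alone for 420. Where only 1 array detected a gene, its ratio is a bound within the processing used, written as "at least". Under other processing such ratios could be smaller, down to 3.64 for Myl2 (4.97 as reported) and 0.36 for Ccr2 (1.63). That of Bmx, -1.73 as reported, reached 0.18. The median ratio of all genes was 0.03, and the middle of the distribution ran from -0.20 to 0.25 (quartiles). Ratios were above 0 for 53.2% of all genes and below 0 for 46.6%. Ratios of 4-fold or more were found for 18 higher and 11 lower genes, and of 8-fold or more for 5 and 4. The lowest ratio counted as higher was 1.00 and the highest not counted was 1.00, so the threshold fell at no gap. Among 2985 genes with at least 2 probes detected on both arrays, the brightest such probe was past 2-fold for 73. The next brightest probe had the same sign for 69 of these and was itself past 2-fold for 29. The counts moved with processing, to 85 higher and 52 lower without background correction. The share of higher genes among those past 2-fold was 56.6%, and 82.4% (399 higher, 85 lower) when arrays were scaled to equal medians in place of equal distributions. That scaling moved the median of all genes to 0.25, so lists below are read against the median of all genes.

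**Figure D1:**
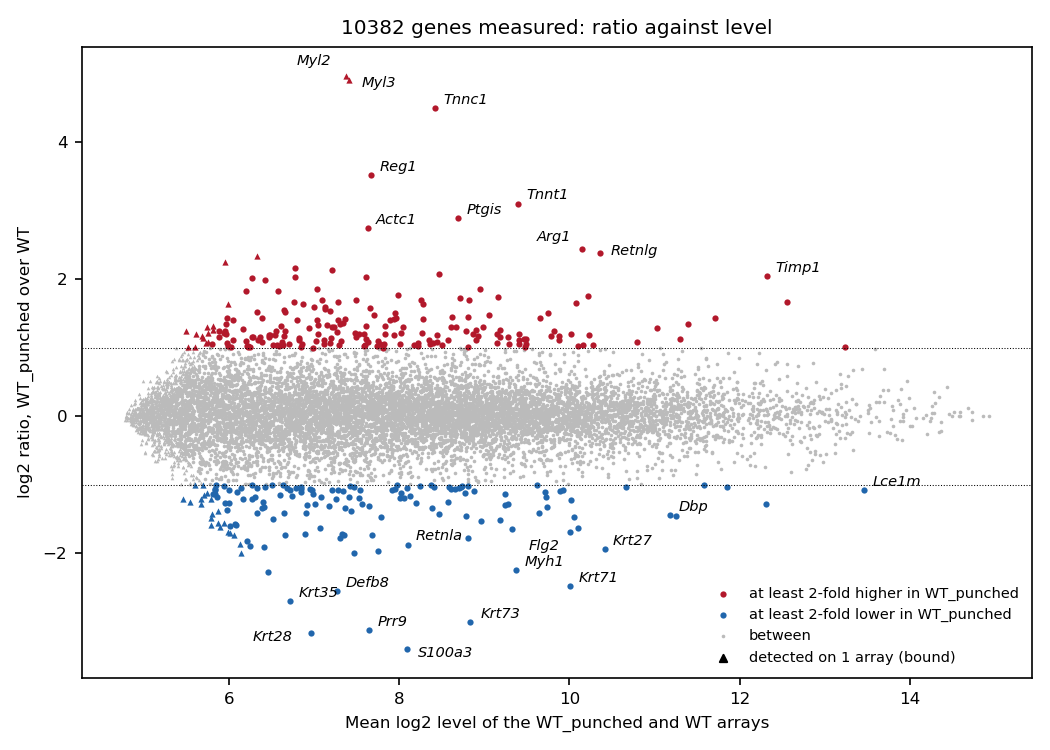
Log2 ratio of WT_punched over WT against the mean log2 level of both arrays, 1 point a gene for 10382 genes. Red points are at least 2-fold higher in WT_punched, blue points at least 2-fold lower, and triangles are genes detected on 1 array, drawn at their bound. Muscle genes, Reg1 and Ptgis lead the upper side, with ratios of 2.75 to 4.97 among those named, and hair follicle keratins, S100a3 and Prr9 the lower side.

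Genes were grouped by role in 56 lists, and the 55 with at least 3 measured members are plotted together. Among the plotted lists, the 3 measured genes of other organs had the highest median, 1.05, which was 0.04 over the 16 named ones without a detection filter. Neutrophil, chemokine receptor, acute-phase, monocyte and chemokine lists followed, and the 3 lists of hair keratins and keratin-associated proteins had the lowest medians. Of the 55 lists with at least 3 measured members, 43 held a member past 2-fold. In whole-biopsy RNA, fewer cells of a type and less RNA per cell cannot be told apart, and the same holds for more of either.

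**Figure D2:**
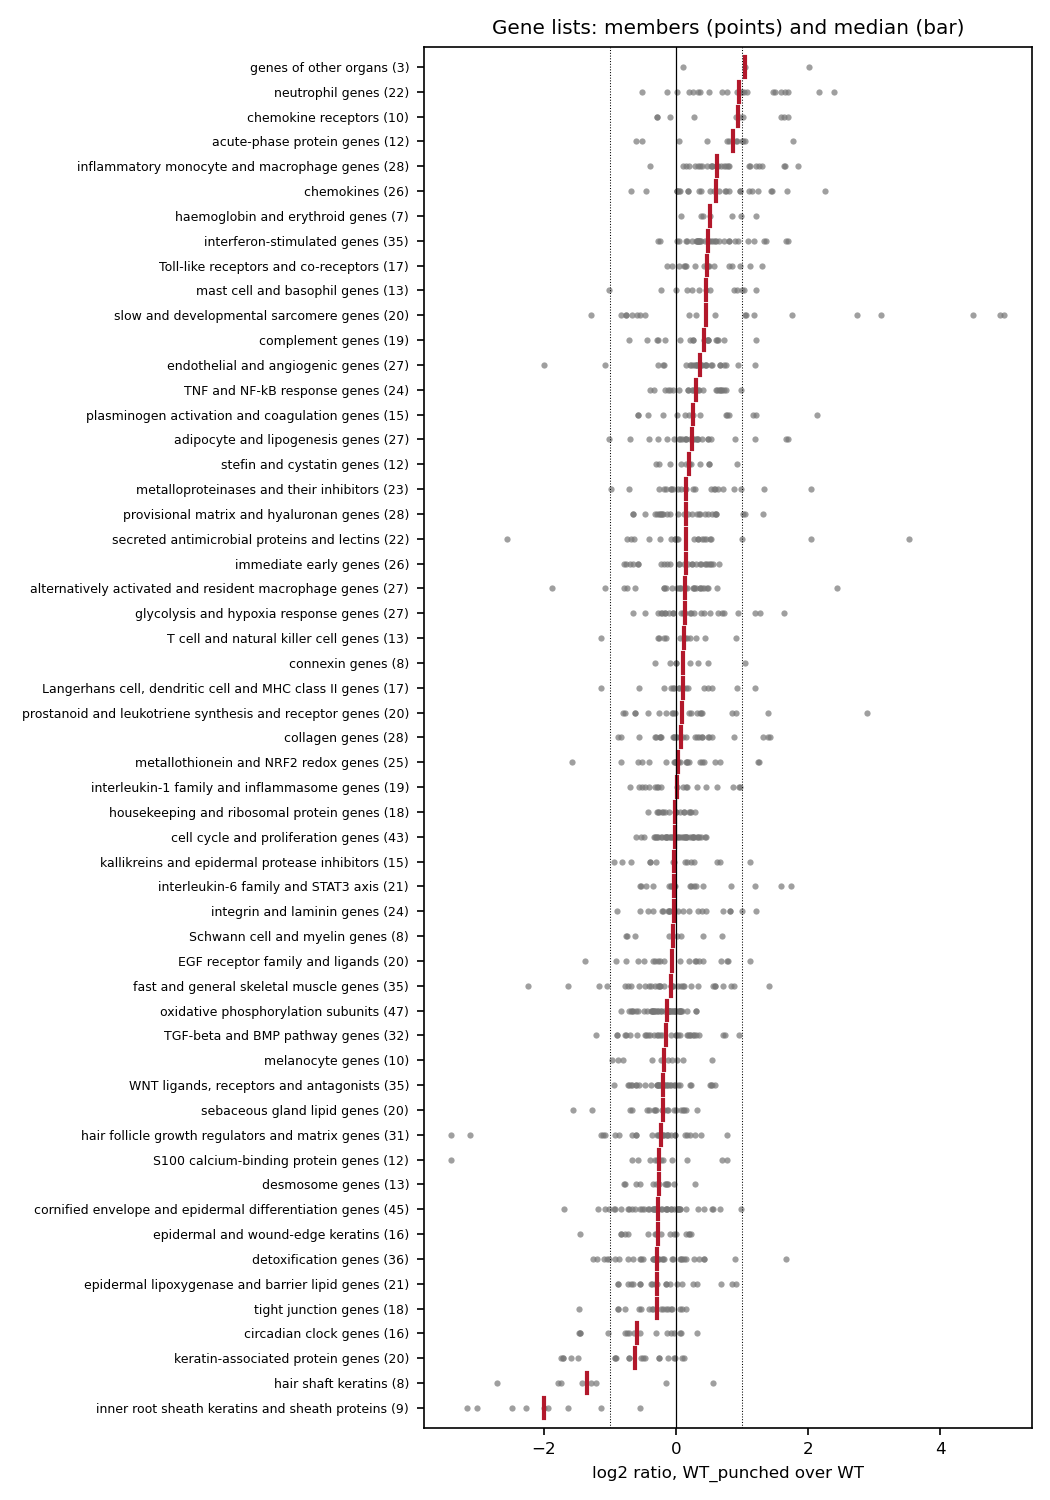
Log2 ratios of WT_punched over WT by gene list, with the number of measured members in brackets, for lists with at least 3 of them. Each point is a gene, each red bar the median of its list, and dotted lines mark 2-fold. The 3 genes of other organs, at a median of 1.05, and neutrophil genes, at 0.96, stand at the top and inner root sheath genes, at -2.0, at the bottom.

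Neutrophil genes stood higher in WT_punched as a list. Of 22 measured, 9 were at least 2-fold higher and 0 lower, beside 1.94% and 1.48% of all genes, and 20 had a ratio above 0. Retnlg, a resistin-like gene of granulocytes, was at 11.56 on WT_punched and 9.17 on WT, 5.24-fold higher. The receptors that bring neutrophils to CXC chemokines moved the same way: Cxcr2 was at 7.94 on WT_punched and 6.24 on WT (3.25-fold), and Cxcr1 at 7.93 and 6.34 (3.02-fold). Fpr2, a receptor for formyl peptides of bacteria and damaged mitochondria, was at 10.50 on WT_punched and 8.99 on WT (2.84-fold). The myeloid activating receptors Trem1 and Trem3 were 4.48-fold and 3.13-fold higher, although a second Trem1 probe had a smaller ratio of 0.87. Csf3r, the receptor for the growth factor G-CSF, was 2.12-fold higher (other probes 0.38 to 1.29), and G0s2, an inhibitor of triglyceride breakdown that neutrophils also express, 2.78-fold higher. The abundant calprotectin subunits S100a8 and S100a9 were short of 2-fold. S100a8 was at 13.78 on WT_punched and 13.08 on WT, and S100a9 at 12.59 and 11.82. On the other arrays S100a9 was at 12.43 on BLT2KO_punched and 9.84 on BLT2KO. The neutrophil list median was 2.32 for that pair and 0.96 for WT_punched over WT. Genes of granules made in the bone marrow were mostly not detected on either array, namely Mpo, Ngp, Camp and Mmp8. These markers were already detected in unwounded skin: Retnlg, Fpr2 and S100a9 passed detection on WT, and Il1r2, the decoy interleukin-1 receptor, had a ratio of -0.52.

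Inflammatory monocyte and macrophage genes followed. Of 28 measured, 8 were at least 2-fold higher and 0 lower, beside 1.94% and 1.48% of all genes, and 27 of the ratios were above 0 (median 0.63), as were 53.2% over all genes. Acod1, which makes the antimicrobial metabolite itaconate, was at 9.88 on WT_punched and 8.03 on WT (3.61-fold higher). Ccr2, the receptor by which monocytes leave the marrow for tissue, was detected on WT_punched only, at 6.86, against 5.13 on WT. This makes it at least 3.10-fold higher in the processing used, and its log2 ratio ran from 0.36 to 1.73 in the other settings. The activating Fc receptors Fcgr4 and Fcgr1, which bind antibody-coated particles, were 3.15-fold and 2.47-fold higher. Cd14, the co-receptor for endotoxin, was at 11.86 on WT_punched and 10.73 on WT (2.18-fold). Ncf4, a subunit of the phagocyte oxidase, was 2.16-fold higher, and Itgam, the integrin chain of complement receptor 3, 2.32-fold higher. Clec7a, the beta-glucan receptor, was 2.38-fold higher by its chosen probe, but its second probe gave 0.03.

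Genes of alternatively activated and resident macrophages did not move as a block. Their 27 measured members had a median of 0.14, with 1 past 2-fold upward and 2 downward. Arg1, the arginase that turns arginine into ornithine, was the higher member, at 11.37 on WT_punched and 8.93 on WT (5.44-fold), and its second probe gave a log2 ratio of 2.36. Retnla, a resistin-like protein induced by interleukin-4, was the opposite case, at 7.16 on WT_punched and 9.04 on WT, 3.67-fold lower. Lyve1, the hyaluronan receptor of resident macrophages and lymphatic vessels, was 2.10-fold lower. The C-type lectins Clec10a and Cd209d, at ratios of -0.74 and -0.61, and Selenop, a selenium transport protein, at -0.79, were below 0 but short of 2-fold. Pan-macrophage markers differed little: Adgre1, which encodes F4/80, was at 9.04 on WT_punched and 8.86 on WT, and Csf1r, the receptor for the macrophage growth factor, at 9.09 and 8.81. The mannose receptor Mrc1 had a ratio of 0.36 and the scavenger receptor Cd163 one of -0.15. Thus Arg1 and Retnla, which are often listed together as markers of alternative activation, stood on opposite sides on these arrays.

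**Figure D3:**
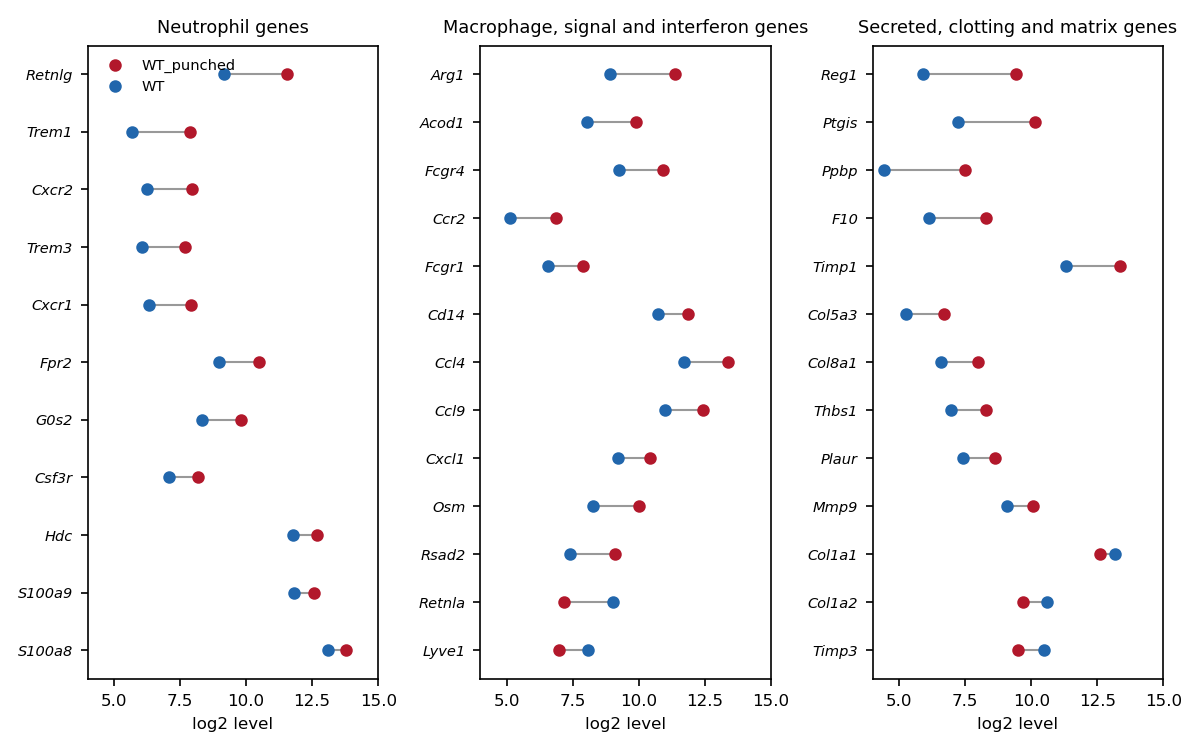
Log2 levels of chosen neutrophil genes, of macrophage, signal and interferon genes, and of secreted, clotting and matrix genes. Red points are WT_punched and blue points WT, 1 array each, and a grey line joins the values of a gene. Red lies right of blue except for Retnla, Lyve1, Col1a1, Col1a2 and Timp3.

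Chemokines, the ligands that recruit these cells, numbered 26, of which 7 were past 2-fold upward and 0 downward (median 0.61), beside 1.94% and 1.48% of all genes. Without a detection filter the median of 35 chemokines was 0.34. Ccl4, which attracts monocytes, was at 13.40 on WT_punched and 11.72 on WT (3.19-fold higher), and its relative Ccl3 was 2.16-fold higher. Ccl9, a CC chemokine of the mouse, was at 12.43 on WT_punched and 10.99 on WT (2.71-fold). The neutrophil attractant Cxcl1 was 2.36-fold higher, and Cxcl2 had a ratio of 0.96, just short of 2-fold. Cxcl2 was at 11.41 on BLT2KO_punched and 7.30 on BLT2KO, while the chemokine list median for that pair was 0.66. Ppbp, a chemokine stored in platelets, was detected on WT_punched only, at 7.48, against 4.43 on WT (at least 4.77-fold higher), and its second probe gave 1.57. Cxcl13, which attracts B cells, was 2.74-fold higher, and Ccl5 at least 2.21-fold higher. Ccl27a, which keratinocytes make constitutively to attract skin-homing T cells, went the other way at -0.67. Receptors had 4 of 10 members at least 2-fold higher, namely Cxcr2, Ccr2, Cxcr1 and Cxcr4, the receptor for CXCL12, which was 2.02-fold higher. Only 10 of 22 named receptors were measured, and without a detection filter the median of all of them was 0.02, as for all genes.

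Upstream sequence of the neutrophil attractants is shown because Cxcl1 and Cxcl2 neighbour each other on chromosome 5 and both attract neutrophils. Their chosen probes gave ratios of 1.24 and 0.96, and a second Cxcl2 probe gave 0.33. Capitals mark GGG, 2 bases of any kind and TTTCC, a form of the NF-kB site, looked for on both strands in the 150 bases before the RefSeq start of GRCm38.p6. It was searched for in the 7 higher chemokines and Cxcl2. It was found in 3 of the 6 that had a promoter in the table (Cxcl1, Cxcl2 and Ccl9) and in 0.903% of all 27025 promoters. A match describes the letters only. Sequences run 5′ to 3′ on the gene's strand.
Cxcl1 (chr5:90891095-90891244, plus strand): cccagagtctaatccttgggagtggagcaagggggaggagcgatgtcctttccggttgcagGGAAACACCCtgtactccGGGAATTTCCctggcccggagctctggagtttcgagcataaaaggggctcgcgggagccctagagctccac
Cxcl2 (chr5:90903749-90903898, plus strand): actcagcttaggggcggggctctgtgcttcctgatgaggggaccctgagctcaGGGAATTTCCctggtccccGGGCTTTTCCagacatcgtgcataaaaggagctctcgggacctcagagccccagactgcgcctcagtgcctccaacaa

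Cytokine genes were more mixed. Osm, or oncostatin M, a leukocyte cytokine that acts on keratinocytes, was at 10.03 on WT_punched and 8.28 on WT (3.36-fold higher), although a second Osm probe gave a ratio of only 0.11. Jak3, the kinase of common gamma chain cytokine receptors, and Il10ra, a chain of the interleukin-10 receptor, were 3.01-fold and 2.29-fold higher. The rest of the interleukin-6 and STAT3 list stayed within 2-fold, with a list median of -0.03. No array of the 4 detected the probe for Il6. The interleukin-1 and inflammasome list had no member past 2-fold among 19 and a median of 0.02. In it, Il1b was at 11.79 on WT_punched and 10.84 on WT, a ratio of 0.95. On the other arrays Il1b was at 12.22 on BLT2KO_punched and 8.24 on BLT2KO, while the list median for that pair was 0.16. Gsdmd, which forms the pores through which interleukin-1 leaves the cell, had a ratio of 0.97 for WT_punched over WT. Il1rap, a chain of the interleukin-1 receptor, was at -0.70 (other probes -0.14 to 0.57), and the keratinocyte form Il1a at -0.47. TNF and NF-kB response genes also had no member past 2-fold by its chosen probe. Ratios were above 0 for 18 of 24 (median 0.31), beside 53.2% of all genes. Tnf itself was at 7.90 on WT_punched and 7.25 on WT, and a second Tnf probe gave a ratio of 1.02. The survival gene Bcl2a1d had a ratio of 0.98 and the inhibitor Nfkbie one of 0.72. On the other arrays Tnf was at 7.68 on BLT2KO_punched and 5.65 on BLT2KO, and the list median for that pair was 0.66. Of 17 Toll-like receptor genes 2 were at least 2-fold higher, Cd14 and Tlr6, beside 1.94% of all genes. A second Tlr6 probe gave 0.14. Immediate early genes, which respond within the first hours of injury, had no member past 2-fold among 26, with ratios from -0.78 to 0.66.

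Interferon-stimulated genes, which encode antiviral effectors, were broadly above 0. Of 35 measured, 33 had ratios above 0 and 6 were at least 2-fold higher, with 0 lower (median 0.49), beside 53.2%, 1.94% and 1.48% of all genes. Rsad2, or viperin, was at 9.11 on WT_punched and 7.42 on WT (3.24-fold higher). Bst2, or tetherin, which holds budding virions on the cell surface, was at 8.03 and 6.66 (2.58-fold). The RNA sensor partner Dhx58 was 3.17-fold higher (other probes 0.74 to 1.28), the oligoadenylate synthetase Oas2 2.51-fold, Ifi27l2a 2.12-fold and Irf7, the transcription factor that amplifies the type I response, 2.28-fold. Isg15, a ubiquitin-like modifier, had a ratio of 0.73 and the interferon-gamma-induced GTPase Igtp one of 0.80, while Irgm1 was at -0.28. In every other setting tried, the list median stayed 0.31 to 0.45 above that of all genes.

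The upstream sequences of Rsad2 and Bst2 are shown with GAAA, 2 bases of any kind and GAAA in capitals, a form of the interferon-stimulated response element, searched on both strands. It was found in 2 of the 3 higher interferon genes that had a promoter in the table (not in Irf7), against 1.6% of all promoters. In Bst2 the capitals cover 2 overlapping matches, and in Rsad2 the match lies on the opposite strand.
Rsad2 (chr12:26456453-26456602, minus strand): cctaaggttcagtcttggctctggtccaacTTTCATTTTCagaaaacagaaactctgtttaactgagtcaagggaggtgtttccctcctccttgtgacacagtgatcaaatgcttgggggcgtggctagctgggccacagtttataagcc
Bst2 (chr8:71537473-71537622, minus strand): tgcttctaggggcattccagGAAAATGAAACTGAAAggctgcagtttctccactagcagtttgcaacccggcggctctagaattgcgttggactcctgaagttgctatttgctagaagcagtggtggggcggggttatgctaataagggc

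Other leukocyte lists moved less. Of 17 Langerhans cell, dendritic cell and MHC class II genes, the co-stimulatory ligand Cd80 was 2.29-fold higher and Cd207, or langerin, which defines Langerhans cells, was at 6.42 on WT_punched and 7.56 on WT, 2.20-fold lower. A second Cd207 probe gave -1.0, and the class II invariant chain Cd74 was at 12.71 and 12.61. T cell and natural killer genes had a median of 0.12 over 13 members, and the receptor chains Cd3e and Cd3g had ratios of -0.15 and -0.26. Gata3, a factor of T helper cells that is also made in the inner root sheath and epidermis, was 2.20-fold lower. Of 13 mast cell and basophil genes, the tryptase Tpsab1 was at least 2.32-fold higher and the IgE receptor chain Fcer1a 2.05-fold higher (second probe 0.59), while Mrgprb2, the receptor for basic secretagogues of connective tissue mast cells, was 2.02-fold lower. The mast cell carboxypeptidase Cpa3 was at 9.61 on WT_punched and 9.61 on WT. Hdc, which makes histamine and is expressed by neutrophils as well as mast cells, was at 12.69 and 11.76. Slfn1, a growth regulator of lymphoid and myeloid cells, was 2.78-fold higher.

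Acute-phase and secreted defence proteins split between strong and unmoved members. Saa1, serum amyloid A, was at 8.88 on WT_punched and 7.10 on WT (3.43-fold higher), the pentraxin Ptx3 was 2.07-fold higher, and haptoglobin (Hp) was at 13.74 and 12.73 (2.02-fold), although its other probes gave 0.51 and 0.56. They were 3 of 12 acute-phase genes, beside 1.94% of all genes at least 2-fold higher. The median of the acute-phase list was 0.86, or 0.10 over 23 genes without a detection filter. Reg1, a secreted C-type lectin known best from regenerating pancreas, was at 9.44 on WT_punched and 5.91 on WT, 11.5-fold higher. Pglyrp1, a peptidoglycan recognition protein of neutrophil granules, was 4.11-fold higher, against -0.69 for Pglyrp4, the epidermal relative. Among beta-defensins, Defb8 was 5.88-fold lower, at 5.99 on WT_punched and 8.55 on WT, while Defb6 and Defb4 had ratios of -0.74 and -0.64. Antimicrobial lysozyme gave conflicting readings, since the Lyz1 probe with the highest level had a ratio of 0.40 and its other probes ran from -2.23 to -1.77. Stefins, the cysteine protease inhibitors of myeloid cells and keratinocytes, had 0 members past 2-fold of 12, with Cstdc4 highest at 0.93. Complement genes had 14 of 19 ratios above 0 and 1 past 2-fold upward, Itgam, beside 53.2% and 1.94% of all genes. Properdin (Cfp), which stabilises the alternative pathway convertase, was at 13.05 on WT_punched and 12.32 on WT, and C7, a part of the membrane attack complex, had a ratio of -0.72.

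Clotting and prostanoid genes included some of the largest ratios. Coagulation factor X (F10) was at 8.29 on WT_punched and 6.15 on WT (4.41-fold higher), and factor VII (F7), which triggers the extrinsic pathway, was 2.24-fold higher. Plaur, the urokinase receptor on migrating leukocytes and keratinocytes, was at 8.63 and 7.41 (2.32-fold), and its ligand Plau had a ratio of 0.80. Serpinb2, an inhibitor of urokinase, was at -0.58 and the anticoagulant receptor Thbd at -0.43. Ptgis, the prostacyclin synthase of vessels and fibroblasts, was at 10.14 on WT_punched and 7.24 on WT, 7.42-fold higher. Tbxas1, the thromboxane synthase of platelets and macrophages, which uses the same substrate as Ptgis and releases 12-HHT, was at 7.50 on WT_punched and 6.10 on WT (2.64-fold higher, with a second probe at 0.90). Enzymes of leukotriene synthesis were short of 2-fold: Alox5ap had a ratio of 0.85, Ltc4s 0.92 and Alox5 -0.16. Ltb4r1, which encodes the leukotriene B4 receptor BLT1, was at 10.63 on WT_punched and 10.24 on WT. No named probe was found for Ltb4r2, which encodes BLT2. Hpgd, which degrades prostaglandins, and the secreted phospholipase Pla2g2f had ratios of -0.78 and -0.80. The Ptgs2 probe was not detected on either array.

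Matrix genes showed a few higher members and no shift of the whole group. Timp1, the secreted metalloproteinase inhibitor, was at 13.34 on WT_punched and 11.30 on WT (4.12-fold higher), and its second probe gave 2.06. Its relatives went the other way without passing 2-fold, Timp3 at -0.99 and Timp4 at -0.71, and other Timp3 probes gave -0.22 and -0.12. Adam8, a leukocyte surface protease, was 2.52-fold higher, and Mmp9, the gelatinase of neutrophils and wound-edge keratinocytes, was at 10.06 and 9.07, a ratio of 0.99. Of 28 collagen genes 3 were at least 2-fold higher, beside 1.94% of all genes. They were Col5a3 (2.70-fold), Col8a1 (2.64-fold, second probe 0.68), a short-chain collagen of vessels, and Plod2 (at least 2.48-fold, second probe 0.96), which hydroxylates collagen lysines for cross-links. The fibrillar collagens of resting dermis were not among them: Col1a1 was at 12.61 on WT_punched and 13.16 on WT, Col1a2 at 9.71 and 10.58, and Col3a1 at 9.94 and 9.98. In the provisional matrix, Thbs1, or thrombospondin 1, was 2.50-fold higher, the hyaluronan synthase Has1 2.06-fold and the elastin-associated Emilin2 2.03-fold. Fibronectin (Fn1) had a ratio of 0.36 and tenascin C (Tnc) one of 0.25. Lum and Dcn, the dermal proteoglycans lumican and decorin, had ratios of -0.65 and -0.25, and the smooth muscle genes Acta2 and Myh11 had ratios of -0.46 and -0.65. Integrin chains Itga5 and Itgb1, which form the fibronectin receptor, were at 0.81 and 0.71, against -0.89 for laminin alpha 2 of muscle and nerve basement membrane.

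Growth factor pathways had few members past 2-fold. Btc, or betacellulin, an EGF receptor ligand made in the hair follicle and epidermis, was at 6.75 on WT_punched and 8.13 on WT, 2.60-fold lower, and the epidermal ligand Epgn had a ratio of -0.91. Igf2, a fetal growth factor, was 2.18-fold higher, and Igf1 and the PDGF receptor Pdgfra were at 0.80 and 0.69. In the TGF-beta and BMP list, Id4, a target of BMP signalling, was 2.32-fold lower (second probe -0.76), and its relative Id1 had a ratio of -0.89. Tgfb1 and Inhba, which encodes activin A, were at 0.71 and 0.95, whereas Tgfb2 and Bmp7 were at -0.75 and -0.89. WNT genes had no member past 2-fold, but 27 of 35 ratios were below 0, beside 46.6% of all genes. Their median was -0.19, and between -0.31 and -0.12 relative to all genes in the other settings. Wnt7b, an epidermal and follicular ligand, had a ratio of -0.93, the target gene Axin2 one of -0.61, and Lgr5, a receptor of follicle stem cells, one of -0.60.

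Hair follicle genes had the lowest ratios of all. Of 9 measured keratins and proteins of the inner root sheath, the sleeve that moulds the growing hair, 8 were at least 2-fold lower and 0 higher, beside 1.48% and 1.94% of all genes (median -2.0, and -2.11 to -1.25 in the other settings). Krt28 was at 5.38 on WT_punched and 8.55 on WT (log2 ratio -3.17), Krt73 at 7.33 and 10.34 (8.05-fold), and Krt71 at 8.77 and 11.24 (5.56-fold). Krt26 and Krt27 were 4.83-fold and 3.84-fold lower, Krt72 was detected on WT only and at least 4.01-fold lower, and Tchhl1, a trichohyalin-like protein, was 3.10-fold lower. Krt75, the keratin of the companion layer, was the mildest at -0.54. Of 8 hair shaft keratins, 6 were at least 2-fold lower. Krt35, of the hair matrix and cuticle, was at 5.37 on WT_punched and 8.07 on WT (6.52-fold), and the cortex keratins Krt33b, Krt34 and Krt33a were 3.45-fold, 3.34-fold and 2.67-fold lower. Krt86, a further shaft keratin, was 2.31-fold lower and Krt31 at least 2.44-fold lower. Keratin-associated proteins, which cross-link the shaft, had 5 of 20 at least 2-fold lower and a median of -0.62, and many were near the detection limit. The lower members were Krtap7-1 (3.35-fold), Krtap3-1 (3.29-fold), Krtap4-7 (3.00-fold), Krtap17-1 (at least 3.26-fold) and Krtap26-1 (at least 2.81-fold), and the median ran from -1.26 to -0.19 in the other settings. S100a3, a calcium-binding protein of the hair cuticle, was at 6.40 on WT_punched and 9.80 on WT (10.6-fold lower), and Prr9, a proline-rich hair protein, at 6.09 and 9.20 (8.69-fold lower). Dlx3, a transcription factor of the hair matrix, was 2.10-fold lower and Psors1c2, an epidermal and follicular protein, 2.14-fold lower, while the whole list of 31 had a median of -0.22. The matrix factor Msx1 was at -0.86 and Ptch1, the hedgehog receptor, at -0.67.

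The same genes had other levels in the BLT2KO pools. Krt71 was at 13.87 on BLT2KO_punched and 13.81 on BLT2KO, Krt28 at 10.25 and 10.33, Krt34 at 12.95 and 12.76, and S100a3 at 11.69 and 11.91. Both wild-type arrays were thus below both BLT2KO arrays for these 4 genes, WT_punched being the lowest. Hair genes are made mainly by growing follicles, so punching cannot be told apart from a difference in hair cycle stage between the WT_punched and WT pools. Melanocyte genes, which are also expressed in growing follicles, had 7 of 10 ratios below 0, beside 46.6% of all genes, and none past 2-fold. Among melanocyte genes, the pigment enzyme Dct was at 8.45 on WT_punched and 9.41 on WT, and Pmel, of pigment granules, at 6.57 and 7.45. Their part in the hair result was not tested.

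Upstream sequences of the inner root sheath keratins are shown because the genes moved together and lie in shared regions, Krt26, Krt27 and Krt28 on chromosome 11 and Krt71 and Krt73 on chromosome 15. Capitals mark the TATA box letters TATAAA, searched on both strands in the 150 bases before the start. They were found in 5 of 6 keratins (not in Krt72), 30 bases before the start in Krt26, Krt28 and Krt73, 40 in Krt71 and 15 in Krt27, and in 8.08% of all promoters.
Krt28 (chr11:99374904-99375053, minus strand): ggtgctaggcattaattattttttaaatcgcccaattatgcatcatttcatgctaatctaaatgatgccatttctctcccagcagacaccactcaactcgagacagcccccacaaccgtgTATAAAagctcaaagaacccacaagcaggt
Krt71 (chr15:101743098-101743247, minus strand): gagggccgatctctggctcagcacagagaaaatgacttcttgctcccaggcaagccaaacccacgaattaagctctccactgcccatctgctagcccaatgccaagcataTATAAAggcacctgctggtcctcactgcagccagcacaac
Krt73 (chr15:101802361-101802510, minus strand): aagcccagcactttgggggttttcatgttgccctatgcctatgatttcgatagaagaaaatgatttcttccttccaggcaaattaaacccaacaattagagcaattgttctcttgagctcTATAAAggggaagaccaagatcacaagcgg

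**Figure D4:**
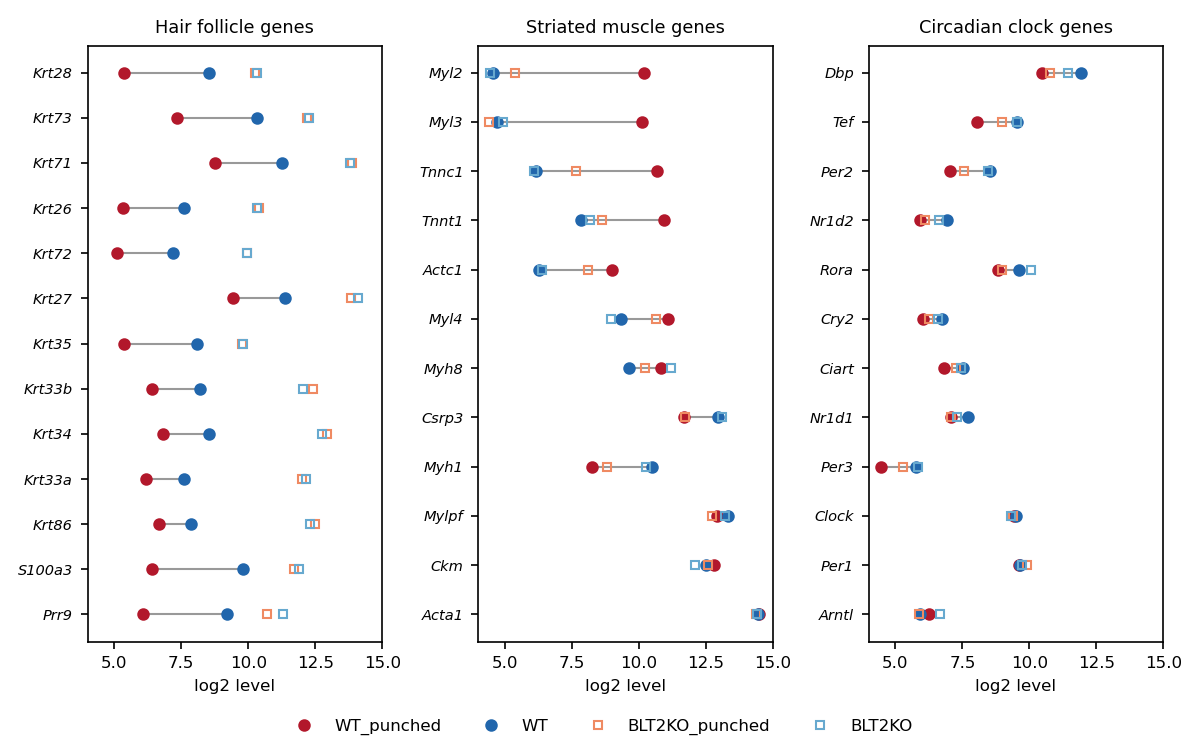
Log2 levels of hair follicle, striated muscle and circadian clock genes on the 4 arrays, 1 array each. Filled red points are WT_punched and filled blue points WT, joined by a grey line; open orange squares are BLT2KO_punched and open light blue squares BLT2KO. Hair genes lie left on WT_punched and right on both BLT2KO arrays, Myl2 and Myl3 lie far right on WT_punched alone, and Dbp, Tef and Per2 lie left of WT on WT_punched.

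Epidermal genes differed less than follicle genes and mostly in the same direction. The basal keratins Krt5 and Krt14 had ratios of -0.23 and 0.19, and Krt10 was at 14.49 on WT_punched and 14.49 on WT. Keratins known for their induction at wound edges were all within 2-fold in these biopsies by their chosen probes. Krt16 was at 14.23 on WT_punched and 14.26 on WT, and Krt17 at 14.32 and 14.41. Krt6b was at 13.80 and 13.60, and Krt6a at 7.47 and 8.30. Second probes gave 0.37 for Krt6b and -1.23 for Krt6a. For BLT2KO_punched over BLT2KO the ratios were 1.25 for Krt6b, 0.50 for Krt16, -0.22 for Krt17 and -0.01 for Krt6a. Krt77, an epidermal keratin, was 2.74-fold lower. In the cornified envelope and differentiation list, 4 of 45 members were at least 2-fold lower and 32 had ratios below 0 (median -0.27). Over all genes these shares were 1.48% and 46.6%. Flg2, or filaggrin 2, was at 9.17 on WT_punched and 10.85 on WT (3.22-fold lower), and its second probe gave -1.45. The late cornified envelope genes Lce1l, Lce1m and Lce1f were 2.26-fold, 2.11-fold and 2.02-fold lower. Lce3 genes, known in human skin from barrier injury, were near 0, with Lce3a at 0.16 and Lce3b at -0.07. Rptn, or repetin, had a ratio of 0.99, and the protease inhibitor Serpinb12 was 2.18-fold higher.

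Junction genes leaned to the same side. Of 18 tight junction genes, 15 had ratios below 0, beside 46.6% of all genes. Only Cldn10 was past 2-fold, at 9.32 on WT_punched and 10.79 on WT, while 1.48% of all genes were at least 2-fold lower. The epidermal claudins Cldn1 and Cldn4 had ratios of -0.87 and -0.89. Of 13 desmosome genes, 12 were below 0, beside the same 46.6%, with no member past 2-fold. The cadherins Dsc1, Dsc3 and Dsg2 had ratios of -0.77, -0.61 and -0.78. Relative to all genes, the medians of the cornified, tight junction and desmosome lists were -0.29, -0.31 and -0.28, and they stayed below 0 in every other setting tried. Among connexins, Gja5, of arterial endothelium, was 2.06-fold higher (other probes 0.72 to 1.44). Epidermal lipoxygenase and barrier lipid genes had no member past 2-fold, with the ceramide transporter Abca12 at -0.87 and Cers3 at -0.73. That list's median of -0.28 became 0.011 with median scaling, where all genes had 0.25. Slurp1, a secreted Ly6-like protein of keratinocytes, was detected on WT only and at least 2.95-fold lower, and Dgat2l6, of sebocyte lipid synthesis, was 2.42-fold lower.

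A few fat genes were higher and a few detoxification genes lower. Thrsp, a regulator of lipogenesis, was at 9.67 on WT_punched and 7.98 on WT (3.23-fold higher), Ces1f, a carboxylesterase, at 7.60 and 5.93 (3.18-fold), and Mrap, the ACTH receptor accessory protein of adipocytes, was 2.28-fold higher. Of 27 adipocyte genes, 21 had ratios above 0, beside 53.2% of all genes. The defining markers differed little, Adipoq being at 11.34 on WT_punched and 11.11 on WT, Plin1 at 6.38 and 5.99, and Cidec at 9.86 and 9.55. Sncg, or gamma-synuclein, was 2.03-fold lower. Among 36 detoxification genes 5 were past 2-fold downward and 1 upward, beside 1.48% and 1.94% of all genes. Their median of -0.28 became 0.017 with median scaling. Aldh1a1, which makes retinoic acid, was at 5.78 on WT_punched and 7.03 on WT (2.38-fold lower), and Cyp26b1, which breaks it down, at 5.81 and 6.86 (2.07-fold lower). The glutathione transferase Gstm5 and the aldehyde oxidase Aox4 were 2.13-fold and 2.02-fold lower, and Mup6, a major urinary protein, 2.30-fold lower.

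Striated muscle genes held the highest ratios of all and also large ones in the other direction. Myl2 and Myl3, the regulatory and essential light chains of slow and ventricular myosin, were at 10.20 and 10.13 on WT_punched. On WT they were not detected, at 4.56 and 4.69, so Myl2 was at least 31.4-fold and Myl3 at least 30.0-fold higher. Slow troponins followed, Tnnc1 at 10.68 on WT_punched and 6.17 on WT (22.7-fold higher) and Tnnt1 at 10.95 and 7.84 (8.60-fold higher). Genes of the fetal sarcomere were also higher: cardiac actin Actc1 6.71-fold, the embryonic light chain Myl4 3.38-fold and perinatal myosin Myh8 2.27-fold. Atp2a2, the slow-muscle and heart calcium pump, had a ratio of 1.04, while other Atp2a2 probes gave -0.24 and 0.75. The slow and developmental list was mixed. Of its 20 measured members, 9 were at least 2-fold higher and 1 lower, beside 1.94% and 1.48% of all genes. Its median was 0.45, and 8 ratios were below 0, among them Hspb7 at -0.83, Cryab at -0.76 and Fhl1 at -0.67. Fast and general muscle genes had a median of -0.08 over 35 members. The muscle actin Acta1 was at 14.47 on WT_punched and 14.45 on WT, muscle creatine kinase Ckm had a ratio of 0.33 and the fast light chain Mylpf one of -0.40. Myh1, the IIx fast myosin, was 4.75-fold lower by its chosen probe, but a second probe gave -0.19. Csrp3, the muscle LIM protein and the lower member of the slow list, was 2.43-fold lower. Of the fast and general list, Xirp2 was 3.12-fold, Myot, or myotilin, 2.23-fold and myoglobin (Mb) 2.05-fold lower. Casq2, the calsequestrin of heart and slow muscle, was 2.66-fold higher. Myog, the differentiation factor of muscle precursors, and Chrng, the fetal acetylcholine receptor chain, had ratios of 0.84 and 0.87, and a second Myog probe gave 0.06.

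On the BLT2KO arrays the muscle genes fell into different patterns. Myl2 was at 5.37 on BLT2KO_punched and 4.43 on BLT2KO, and Myl3 was detected on neither, at 4.42 and 4.94. Tnnt1 was at 8.64 on BLT2KO_punched and 8.18 on BLT2KO. Tnnc1, Actc1 and Myl4, in contrast, were 2.95-fold, 3.31-fold and 3.16-fold higher on BLT2KO_punched than on BLT2KO. Myh8 went the other way, at 10.24 on BLT2KO_punched and 11.19 on BLT2KO. Csrp3, Xirp2 and Mb had ratios of -1.38, -1.47 and -1.32 on that pair. High levels of Myl2 and Myl3 were thus seen on WT_punched alone. Muscle caught in a biopsy and punching cannot be told apart for them with 1 pool a group, and Myh6, the cardiac marker given above, was detected on the same array.

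Circadian clock genes stood lower as a list, with 4 of 16 members at least 2-fold lower, 0 higher and 13 ratios below 0 (median -0.59), beside 1.48%, 1.94% and 46.6% of all genes. The median was -0.19 when all probes of a gene were averaged, -0.30 without a detection filter and -0.32 in the deposited processed values. Dbp, a PAR bZIP factor driven directly by the clock, was at 10.46 on WT_punched and 11.91 on WT (2.73-fold lower). Per2, a repressor of the core loop, was at 7.05 and 8.52 (2.76-fold lower), and its second probe gave -1.19. Nr1d2, or REV-ERB beta, was 2.05-fold lower. Tef, a relative of Dbp, was 2.75-fold lower by its chosen probe, while a second probe gave -0.07. Arntl, which encodes the activator BMAL1 and peaks out of phase with Dbp and Per2, was at 6.26 on WT_punched and 5.93 on WT, and its partner Clock had a ratio of -0.08. Per1 was at 9.63 and 9.65. The labels give no hour of sampling.

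Metabolic genes moved in a few places. Hk3, a hexokinase of leukocytes, was at 9.10 on WT_punched and 7.46 on WT (3.11-fold higher), the glucose transporter Slc2a3 was 2.40-fold higher and the uridine phosphorylase Upp1 2.29-fold. Enzymes of the common glycolytic path stayed within 2-fold, with Ldha at 0.39 and Pgk1 at 0.12, and Hif1a had a ratio of -0.46. Nuclear-encoded subunits of oxidative phosphorylation had 36 of 47 ratios below 0, beside 46.6% of all genes, and none past 2-fold. Their median was -0.14, and -0.17 to -0.12 relative to all genes in the other settings. Hmox1, the stress-induced heme oxygenase, was at 9.81 on WT_punched and 8.56 on WT (2.39-fold higher). Metallothioneins differed by member: Mt3 was at least 2.37-fold higher, Mt4, of stratified epithelium, 2.97-fold lower, and Mt1 and Mt2 had ratios of 0.43 and -0.03. Cat, or catalase, was at -0.83. Cell cycle genes had no member past 2-fold among 43, with ratios from -0.61 to 0.46 and a median of -0.01; Top2a had a ratio of -0.06 and Cdk1 one of 0.15.

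Vascular and nerve genes completed the survey of resident tissue. Of 27 endothelial and angiogenic genes, 22 had ratios above 0 (median 0.36), beside 53.2% of all genes. Aplnr, the apelin receptor of sprouting endothelium, was 2.30-fold higher, Vegfa had a ratio of 0.73, and the pan-endothelial Pecam1 and Cdh5 had ratios of 0.53 and 0.29. Angptl7, an angiopoietin-like secreted protein, was at 6.47 on WT_punched and 8.47 on WT (4.00-fold lower), and its second probe gave -0.95. Of 12 erythroid genes named on the array 7 were measured, and all 7 had ratios above 0 (median 0.51), beside 53.2% of all genes. The heme synthesis enzyme Alas2 was 2.32-fold higher and Hba-a1, an alpha globin, had a ratio of 0.98. For BLT2KO_punched over BLT2KO the erythroid list median was -0.04, and Alas2 had a ratio of -0.33. Schwann cell and myelin genes had no member past 2-fold, with myelin basic protein Mbp at -0.75. Housekeeping genes ran from -0.43 to 0.28, with Actb at 0.28 and Eef1a1 at 0.00. Among the leading genes outside the lists, Nfe2, an erythroid and megakaryocyte factor, was 4.11-fold higher, and Mrgpra2b, a Mas-related receptor, 4.21-fold, with a second probe at 0.66. Mgarp, a mitochondrial protein, was 3.99-fold higher, and Nox4, an oxidase that makes hydrogen peroxide, at least 2.38-fold higher. Dlk1, a Notch-like protein of preadipocytes and regenerating muscle, was at least 5.05-fold higher with a second probe at 0.81, and Prok2, a chemokine-like peptide that neutrophils make, at least 2.47-fold, with a second probe at 0.61. On the lower side, Cryba4, a crystallin, was 3.90-fold lower, Ly6g6d, a Ly6 family protein, 3.77-fold and Mettl21c, a muscle methyltransferase, 3.71-fold lower. Genes detected on WT only included Sct, or secretin (at least 3.64-fold lower), Bmx, a Tec family kinase (at least 3.32-fold), and Hoxc10, a positional homeobox gene (at least 3.00-fold). Glt8d2, a glycosyltransferase domain protein, was at least 3.24-fold lower (second probe -0.76) and Cyp2b23, a cytochrome P450, at least 3.08-fold lower (second probe -1.03).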

How the data were processed

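The authors deposited, per the file headers, a non-normalized intensity and a detection p-value for each of 45281 probes on 4 Illumina MouseWG-6 arrays, exported with BeadStudio per the labels' protocols, in a version not given in the sources used here. Processed intensity values, in another deposited table, equalled the non-normalized ones times 1 constant per array (0.963 for WT_punched and 1.24 for WT), without background subtraction. Samples were grouped by their titles.

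In limma 3.58.1 (R 4.3.3), normexp background correction in the manner of neqc used negative-control parameters inferred from the detection p-values. Corrected intensities plus an offset of 16 were quantile-normalized over all 4 arrays and log2-transformed. Weak genes have ratios drawn toward 0 by the offset. Later steps used Python 3.11.15, numpy 2.4.6, pandas 2.3.3 and matplotlib 3.10.9, and were tested on simulated data. Of 34903 annotated probes, 34885 had 1 gene and named 19057 genes. Of these 34885 probes, 34807 had a gene ID found in RefSeq GRCm38.p6. Of several probes for a gene, the brightest on average represented it. Where 1 array did not detect it, that side was raised, if lower, to the lowest detected log2 value there (5.20 on WT_punched, 5.23 on WT).

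The text names the 15 highest and 15 lowest ratios among genes detected on both arrays, the 8 largest bounds each way, up to 8 members past 2-fold of each list and 17 genes fixed by name, leaving out clone names. Of the 3 largest ratios of lists with none past 2-fold, and of the highest-level and opposite-moving members, only some are given. Other members given as examples were chosen after their values were seen. Members and lists were chosen with earlier results of these data known. The arrays' number, 1 a group, limits the precision of every value. Promoter sequences came from RefSeq (GRCm38.p6). In all, 9 alternatives, among them other scaling, background, detection and probe rules, were run.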

Additional observations from a re-analysis of the deposited data

Results flagged for a closer look

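Of the 201 higher genes, 200 were measured on the BLT2KO pair. There 189 had the same sign and 135 were also at least 2-fold higher. All 154 lower genes were measured on that pair, where 140 had the same sign and 63 were also at least 2-fold lower. Among genes measured in both genotypes, 3 were past 2-fold in opposite directions with punching, which singled them out. The difference was not tested, since each array was 1 pool. Ces1f, a carboxylesterase, was at 7.60 on WT_punched and 5.93 on WT (log2 ratio 1.67), and at 5.35 on BLT2KO_punched and 7.25 on BLT2KO (-1.90). Thrsp, a regulator of lipogenesis, was at 9.67 on WT_punched and 7.98 on WT (1.69), and at 7.01 on BLT2KO_punched and 8.65 on BLT2KO (-1.64). The adipocyte list, which holds both genes, had a median of 0.24 for WT_punched over WT and -0.48 for BLT2KO_punched over BLT2KO, and the lipid droplet gene Cidec was at 9.86 on WT_punched and 9.55 on WT, and at 8.31 on BLT2KO_punched and 9.47 on BLT2KO. The part of fat in the biopsies in these ratios was not tested. Defb8, a beta-defensin, was at 5.99 on WT_punched and 8.55 on WT (-2.55), with a second probe at -1.99, and at 8.14 on BLT2KO_punched and 6.37 on BLT2KO (1.77).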

How the results depend on the processing

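Genes at least 2-fold higher, 201 as reported, numbered 85 without background correction, 399 with median scaling, 115 with an offset of 50 and 85 in the deposited processed values. Genes at least 2-fold lower, 154 as reported, numbered 52, 85, 81 and 49 in the same settings. The other 5 settings gave 134 to 250 higher and 109 to 198 lower genes. All 201 higher genes were among the 399 of median scaling, and the 85 without background correction were all among the 201. The medians of 20 of 55 lists changed sign in at least 1 setting, 15 of them with median scaling, where the median of all genes was 0.25. Among lists farther from 0 than the technical SD, these were barrier lipid genes, to 0.011, and detoxification genes, to 0.017. Averaging all probes of a gene turned Bmx to 0.18, Lyz1 to -1.23 and Actb to -0.02. The cause was not tested beyond that averaging adds the gene's other probes. Relative to all genes, the medians of the neutrophil, monocyte, chemokine, interferon, acute-phase, hair, cornified, tight junction, desmosome and clock lists kept their sign in all 9 settings. Some others did not: those of the interleukin-1, STAT3, MHC class II, antimicrobial, provisional matrix, integrin, connexin, prostanoid, Schwann cell, redox and cell cycle lists, and of the chemokine receptors, crossed that of all genes in 1 or 2 settings. No paired analysis was possible because the labels give every group replicate 1 only. With 1 array a group, no replicate could be left out. Probes near background limit ratios of weak genes most.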

Other observations

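The genes in these paragraphs were chosen after their values were seen, so their counts describe the choice and support nothing. Genes that blood leukocytes use for signalling and for their cytoskeleton were commonly higher in WT_punched. Vav1, an exchange factor downstream of immune receptors, was at 9.63 on WT_punched and 8.33 on WT, 2.46-fold higher. Rac2, the blood cell Rac GTPase, was at 7.89 and 6.66 (2.35-fold), the phosphatase Ptpn6 at 10.46 and 9.29 (2.24-fold), and Selplg, the ligand of P-selectin, at 10.37 and 9.20 (2.25-fold). Second probes gave 0.82 for Ptpn6 and 0.72 for Selplg. Fli1, a transcription factor of blood and endothelium, was at 6.50 on WT_punched and 5.26 on WT (2.36-fold). Coro1a, an actin-binding coronin, and Spi1, the PU.1 factor of myeloid cells, had ratios of 0.76 and 0.84.

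Genes known as induced by glucocorticoids held 3 lower members. Fkbp5, a co-chaperone of the receptor, was at 7.75 on WT_punched and 9.18 on WT (2.69-fold lower), Zbtb16 at 5.73 and 7.06 (2.53-fold), and Pdk4, which restrains pyruvate oxidation, at 8.64 and 9.93 (2.44-fold). They were also below the unwounded array in the BLT2KO pools, with Fkbp5 at 8.14 on BLT2KO_punched and 9.07 on BLT2KO. Other such genes did not share this: Tsc22d3 had a ratio of -0.39, Sgk1 -0.01, Dusp1 0.18 and Mt1 0.43, and the median of 15 was -0.09. Transcripts of the mitochondrial genome had ratios below 0 for 6 of 7 measured, beside 46.6% of all genes. ND5 was 2.47-fold and ATP6 2.34-fold lower, and ND4 was at -0.08.

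Skint9, of a family made by keratinocytes and best known for selecting epidermal gamma delta T cells, was at 7.92 on WT_punched and 9.71 on WT (3.44-fold lower), and Skint6 at 5.94 and 7.35 (2.66-fold). Positional homeobox genes Hoxa7, at 9.07 on WT_punched and 10.39 on WT (2.50-fold lower), and Hoxc10 were lower as well. The remaining measured Hox members mostly leaned the same way short of 2-fold, from -0.53 for Hoxb2 to -0.004 for Hoxd4. Only Hoxc6, at 0.43, and Hoxd10, at 0.02, lay above 0. Over the 20 measured Skint and Hox members together the median was -0.45, with 18 on the lower side of 0. Hoxa7 was at 8.98 on BLT2KO_punched and 10.21 on BLT2KO.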
